A study of Mus musculus with 4 samples.

Results

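RNA of the calcitonin family and of related peptide hormones was followed in the tumour cells of mouse small cell lung cancer, a neuroendocrine carcinoma. The members were the 4 genes Calca, Calcb, Iapp and Cartpt, taken by symbol from the 30406 gene identifiers that all 4 count matrices share, and each of the 4 was present in every matrix. 4 groups were profiled by droplet single-cell RNA sequencing with 1 library each. CRPR2 and RPR2 were lung tumours whose labels do not spell out the names; in this field RPR2 tumours lack Rbl2, Rb1 and Trp53, and CRPR2 tumours also lack Cracd, a regulator of actin capping. The libraries labelled preSC_CracdKO and preSC_WT were allograft tumours of the precancerous neuroendocrine mouse line preSC, with the genotypes CracdKO and WT. The sources used here give neither ages nor host strain, nor how the tumours were started or which part of Cracd was edited. The question each pair addresses is how tumour cells differ where Cracd is lost.

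Pulmonary neuroendocrine cells, and the tumours that resemble them, store peptide hormones in dense-core granules and release them on stimulation. Calca encodes both calcitonin, a hormone that lowers blood calcium, and CGRP, a vasodilating neuropeptide, from alternatively spliced transcripts, and CGRP is the classic marker of pulmonary neuroendocrine cells. Calcb encodes another form of CGRP, and Iapp encodes amylin, a calcitonin-family hormone that beta cells of the pancreas release with insulin. Cartpt encodes the precursor of CART peptides, neuropeptides outside the calcitonin family. CGRP signals through the receptor Calcrl with its partner Ramp1, adrenomedullin through Calcrl with Ramp2 or Ramp3, and calcitonin and amylin through Calcr, for amylin together with a Ramp protein.

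On the mouse build mm10, Calca lies on the minus strand at chr7:114631478-114636357 and Calcb on the plus strand at chr7:114718643-114723365, with 82285 bases between them. Iapp lies on the plus strand at chr6:142298423-142303961, and Cartpt on the minus strand at chr13:99898489-99901091. Of 1678 different words of 50 bases in the annotated Calca transcripts, 12 also occur in Calcb, and the other pairs of members share none. Transcript Calca-201 ends at position 114631478 and Calca-202 at 114633293, and the counts per gene do not tell these ends apart, so calcitonin and CGRP transcripts are not separated here.

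The promoters of Calca, Cartpt and Iapp are shown because Calca and Cartpt differed in the same direction within each pair of libraries, and Iapp is the member whose lung ratio lay closest to 1. Each window runs from 250 bases before to 50 bases after the start of the gene in the RefSeq table of build GRCm38.p6, and 3 of the 4 members had an entry. Capitals mark matches to 3 motifs searched on both strands, namely the cyclic AMP response element TGACGTCA, its half-site TGACG or CGTCA, and the E-box CAGCTG. A full element contains both half-site spellings.
Calca, chr7:114636308-114636607, minus strand: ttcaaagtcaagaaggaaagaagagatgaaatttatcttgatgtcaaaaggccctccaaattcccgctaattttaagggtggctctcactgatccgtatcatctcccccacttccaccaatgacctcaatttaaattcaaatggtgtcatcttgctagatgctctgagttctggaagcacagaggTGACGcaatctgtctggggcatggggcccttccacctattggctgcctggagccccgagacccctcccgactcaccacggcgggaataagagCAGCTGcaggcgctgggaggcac
Cartpt, chr13:99900634-99900933, minus strand: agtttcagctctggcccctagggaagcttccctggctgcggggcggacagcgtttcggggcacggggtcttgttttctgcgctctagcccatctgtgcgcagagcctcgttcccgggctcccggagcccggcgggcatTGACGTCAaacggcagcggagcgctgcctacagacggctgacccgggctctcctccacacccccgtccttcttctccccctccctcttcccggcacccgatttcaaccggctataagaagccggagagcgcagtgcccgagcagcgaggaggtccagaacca
Iapp, chr6:142298175-142298474, plus strand: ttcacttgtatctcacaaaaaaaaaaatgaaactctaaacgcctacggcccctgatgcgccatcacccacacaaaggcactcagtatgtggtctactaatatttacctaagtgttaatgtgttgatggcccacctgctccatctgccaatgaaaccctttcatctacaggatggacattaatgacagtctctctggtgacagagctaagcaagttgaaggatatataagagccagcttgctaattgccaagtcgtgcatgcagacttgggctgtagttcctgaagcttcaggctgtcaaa
The Calca window holds a half-site whose first base is at -65 from the start and an E-box at 27 bases after it. The Cartpt window holds the full element at -112, and the Iapp window holds none of the 3 motifs. Among 32851 promoters of the same length, 1.79% hold the full element, 20.8% a half-site and 16.3% this E-box. A match describes letters in these windows and shows no binding.

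The libraries held 9215 to 18559 barcodes and 42592323 to 110576113 UMIs (unique molecular identifiers, each counted as 1 captured RNA molecule). Tumour cells were those in clusters named from neuroendocrine markers that did not include the members. They numbered 6623 in CRPR2 and 3058 in RPR2, and 14668 in the library labelled preSC_CracdKO and 12440 in the library labelled preSC_WT, with median depths of 3365, 6051.5, 6001.5 and 4948 UMIs. All 16 tumour markers were detected in the tumour cells of every library, and 15 or 16 of them in at least 5% of the cells. Levels are in CPM (counts scaled to the usual fixed total), taken over the summed cells of a class, and intervals are at 95% and cover counting error only. Because each group is 1 library, no spread between animals was measured, no p-value is given, and differences describe these libraries. The targeted gene, listed as C530008M17Rik, stood at 23.6 CPM in CRPR2 and 31.6 CPM in RPR2 tumour cells. Its RNA was thus still counted in CRPR2, and its level does not by itself show that Cracd was lost there. The gene stood at 85.7 CPM in the library labelled preSC_CracdKO and at 5.66 CPM in the library labelled preSC_WT. This order is not the one that loss of the RNA would give. Which part of Cracd was edited is not given, so the level does not by itself show whether those labels hold. Whether an edited transcript is still made or the labels are swapped was not tested. Directions within the allograft pair therefore rest on labels that the RNA does not bear out. Libraries shared 36 to 79 barcodes per pair, at most 0.629% of the smaller library.

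Calca dominated the group and was among the most abundant RNAs of lung tumour cells. It reached 7263 CPM in CRPR2 tumour cells and 3471 CPM in RPR2 tumour cells, and ranked 3 and 16 among all genes there. The ratio of CRPR2 over RPR2 was 2.09 (95% interval 2.08 to 2.11). At least 1 Calca UMI was seen in 96.0% of CRPR2 tumour cells and in 94.3% of RPR2 tumour cells. After each cell was thinned to 1000 UMIs, which left out 404 and 88 shallower cells, these shares were 90.1% in CRPR2 and 76.7% in RPR2. The median tumour cell held 16 Calca UMIs in CRPR2 and 13 in RPR2, although CRPR2 cells were shallower.

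Cartpt followed Calca in the lung pair. It stood at 95.6 CPM in CRPR2 and 45.3 CPM in RPR2 tumour cells, a ratio of 2.11 (1.96 to 2.27). A Cartpt UMI was seen in 10.5% of CRPR2 and 11.2% of RPR2 tumour cells, and after thinning in 4.2% and 2.96%, so the order of the unthinned shares went against the CPM and is not read. Calcb stood at 20.7 CPM in CRPR2 and 11.3 CPM in RPR2, with 556 and 252 UMIs, a ratio of 1.84 (1.58 to 2.14). Iapp stood at 80.1 CPM in CRPR2 and 75.3 CPM in RPR2, and its ratio of 1.06 had an interval of 0.997 to 1.13, so the libraries could not be told apart by counting error alone.

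A gene counted as called when its CPM differed at least 2-fold and the larger of the values reached 20 CPM. By this rule 2 of the 4 members, Calca and Cartpt, were higher in CRPR2 tumour cells and 0 were lower, where 0.555% of 7208 genes were higher, 0.638% were lower and 1.19% were called in all. The median log2 ratio was 0.94 over the 4 members and -0.03 over all genes at this level. The Calca and Cartpt ratios lay near the limit of 2: with the unnamed cluster 13 counted as tumour cells they were 1.56 and 1.60, both under it. RNA of other cells moved with the pair as well. The 6 club cell markers, all detected, summed to 730 CPM in CRPR2 and 128 CPM in RPR2 tumour cells. The erythroid markers, 5 of 6 detected, summed to 599 CPM in CRPR2 and 1.61 CPM in RPR2, in at most 3.38% of the cells for any of them. The 9 T cell markers, all detected, summed to 14.3 CPM in CRPR2 and 68.5 CPM in RPR2. These are the lists that differed at least 2-fold with 20 CPM or more, and their part in the member ratios was not tested.

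The allograft pair ran the other way, and there every member was lower in the library labelled preSC_CracdKO. Calca stood at 638 CPM in the library labelled preSC_CracdKO and at 3265 CPM in the library labelled preSC_WT, 5.11-fold lower (5.07 to 5.16), and ranked 183 and 13 among all genes. The median tumour cell held 2 Calca UMIs in the library labelled preSC_CracdKO and 12 in the library labelled preSC_WT. A Calca UMI was seen in 75.8% of tumour cells of the library labelled preSC_CracdKO and in 94.2% of the library labelled preSC_WT, and in 36.5% and 80.1% after thinning. Cells without Calca were also found at high depth: among tumour cells with over 5000 UMIs, 1780 of 9776 (18.2%) lacked a Calca UMI in the library labelled preSC_CracdKO, against 53 of 6134 (0.864%) in the library labelled preSC_WT.

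Cartpt had the widest gap of the group. It stood at 3.73 CPM in the library labelled preSC_CracdKO and at 59.1 CPM in the library labelled preSC_WT, 15.9-fold lower (14.3 to 17.7). A Cartpt UMI was seen in 2.32% of tumour cells of the library labelled preSC_CracdKO and in 23.4% of those of the library labelled preSC_WT (0.323% and 5.41% after thinning). Iapp stood at 3.96 and 22.0 CPM in the libraries labelled preSC_CracdKO and preSC_WT, 5.56-fold lower (4.98 to 6.22). Calcb was scarce, with 15 UMIs in the library labelled preSC_CracdKO and 112 in the library labelled preSC_WT, 9.49-fold lower (5.51 to 17.5), and no tumour cell of either library held more than 1.

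Of the 4 members, 3 reached 20 CPM in the higher allograft library and could be called, and all 3 were called lower, where 14.9% of 8163 genes were lower, 7.29% higher and 22.2% called in all. Their median log2 ratio was -2.35, against -0.15 over all genes at this level. Scaling with TMM factors brought the median over all genes to -0.04 and the Calca log2 ratio from -2.35 to -2.25. The 16 neuroendocrine tumour markers were also lower as a sum, at 4948 CPM in the library labelled preSC_CracdKO and 8064 CPM in the library labelled preSC_WT. The 6 fibroblast markers, all detected, summed to 9.86 CPM in the library labelled preSC_CracdKO and 68.8 CPM in the library labelled preSC_WT, the 7 macrophage markers to 14.5 and 44.5 CPM, and the 6 alveolar type 1 markers to 33.1 and 15.7 CPM in the same order. The part of these in the member ratios was not tested.

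**Figure D1:**
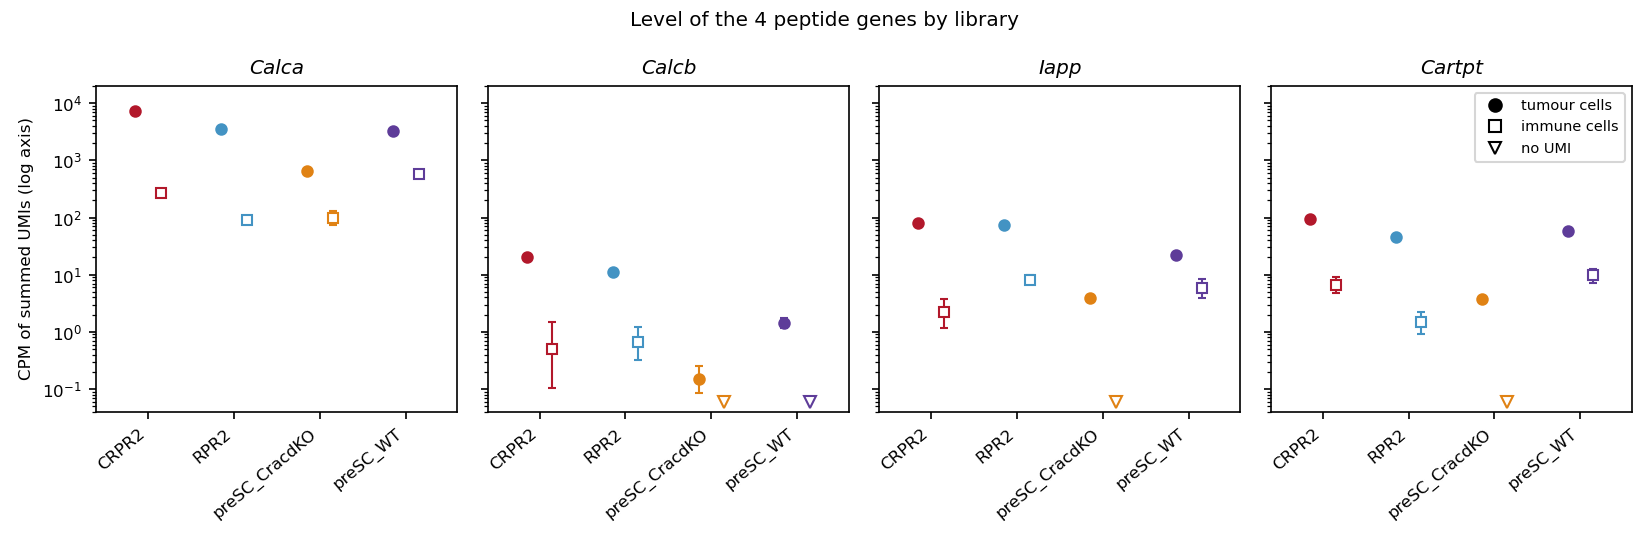
CPM of each member (log axis) in tumour cells (filled circles) and immune cells (open squares) of the 4 libraries, with 95% Poisson intervals and open triangles where no UMI was counted. Calca ran from 638 to 7263 CPM in tumour cells and from 91.6 to 576 CPM in immune cells, and in the allograft pair each member was lower in the library labelled preSC_CracdKO.

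Immune cells, which are not known to make these hormones in quantity, served as background. Calca in immune cells stood at 264 CPM in CRPR2, 91.6 CPM in RPR2, 99.6 CPM in the library labelled preSC_CracdKO and 576 CPM in the library labelled preSC_WT, which was 3.64%, 2.64%, 15.6% and 17.6% of the tumour level. A Calca UMI was seen in 13.4%, 5.78%, 5.14% and 11.1% of immune cells, in the same order, at median depths of 1672, 1709, 988 and 1089.5 UMIs. All tumour shares of Calca lay far above these. T-cell-like cells made up 761 of 2364 immune cells in CRPR2 and 4569 of 5469 in RPR2, so the backgrounds come from unlike mixes. The immune Calca UMIs were unevenly spread, since 33 of 2364 CRPR2 immune cells with at least 10 UMIs held 1168 of 1575, and 33 of 5469 RPR2 immune cells held 995 of 1371. In the library labelled preSC_WT 89 of 3356 such cells held 2338 of 3072, and in the library labelled preSC_CracdKO none of 292 reached 10.

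For the other members the background was low in the lung. A Cartpt UMI was seen in 0.592% of CRPR2 and 0.201% of RPR2 immune cells, an Iapp UMI in 0.508% and 0.238%, and a Calcb UMI in 0.127% and 0.165%. Of the 122 Iapp UMIs in RPR2 immune cells, 104 came from 1 cell. As CPM, the immune level was 2.43% to 10.8% of the tumour level, highest for Iapp in RPR2. In the library labelled preSC_WT, Cartpt was seen in 1.19% and Iapp in 0.477% of immune cells, and their immune CPM was 16.5% and 26.4% of the tumour level. None of 3356 immune cells there held a Calcb UMI, which by the limit of 3 counts allows a share of up to 0.0894% at this depth. None of the 292 immune cells of the library labelled preSC_CracdKO held a UMI of Calcb, Iapp or Cartpt, which by the same limit allows up to 1.03% for each. The immune counts of 0 there allow a level of up to 7.35 CPM, above the tumour levels of Calcb, Iapp and Cartpt, so none of these was shown to lie above background in that library. Tumour cells held 89.8% to 100% of the UMIs of each member in each library, against 52.8% to 98.7% of all UMIs.

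The members differed in how their UMIs were spread over tumour cells. Such spread is limited by level, since a gene with few UMIs can be seen in few cells. In RPR2 tumour cells, for example, Calcb had 252 UMIs and Calca 77566. No comparison at equal UMI counts was made. Calca was broad: the cells that held 50% of its UMIs were 13.8% of tumour cells in CRPR2, 12.8% in RPR2, 12% in the library labelled preSC_CracdKO and 15.0% in the library labelled preSC_WT. Iapp was the most concentrated in CRPR2, where 18 of 6623 cells (0.272%) held 50% of its UMIs and the highest cell held 266, and in RPR2 20 cells (0.654%) did so. Cartpt needed 38 cells (0.574%) in CRPR2 and 36 (1.18%) in RPR2, and Calcb 37 and 16 cells. In the library labelled preSC_WT Cartpt was spread over many cells at low counts instead, with 50% of its UMIs in 765 cells (6.15%) and no cell above 19 UMIs.

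Cells with at least 10 UMIs of a minor member were few. There were 42 such cells for Iapp, 41 for Cartpt and 7 for Calcb in CRPR2, and 39, 16 and 3 in RPR2. The 42 Iapp cells of CRPR2 held 66.9% of its Iapp UMIs, and the 39 of RPR2 also held 66.9%. Both thresholds together were passed for Iapp and Cartpt by 5 cells in CRPR2, or 11.9% of the Iapp and 12.2% of the Cartpt cells, and by 1 cell in RPR2. Of the 7 Calcb cells of CRPR2, 2 also passed for Iapp (28.6%) and 1 for Cartpt (14.3%), and of the 3 of RPR2 none did. The Iapp and Cartpt cells also expressed Calca, with medians of 46 and 50 Calca UMIs in CRPR2 and 23 and 33.5 in RPR2.

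**Figure D2:**
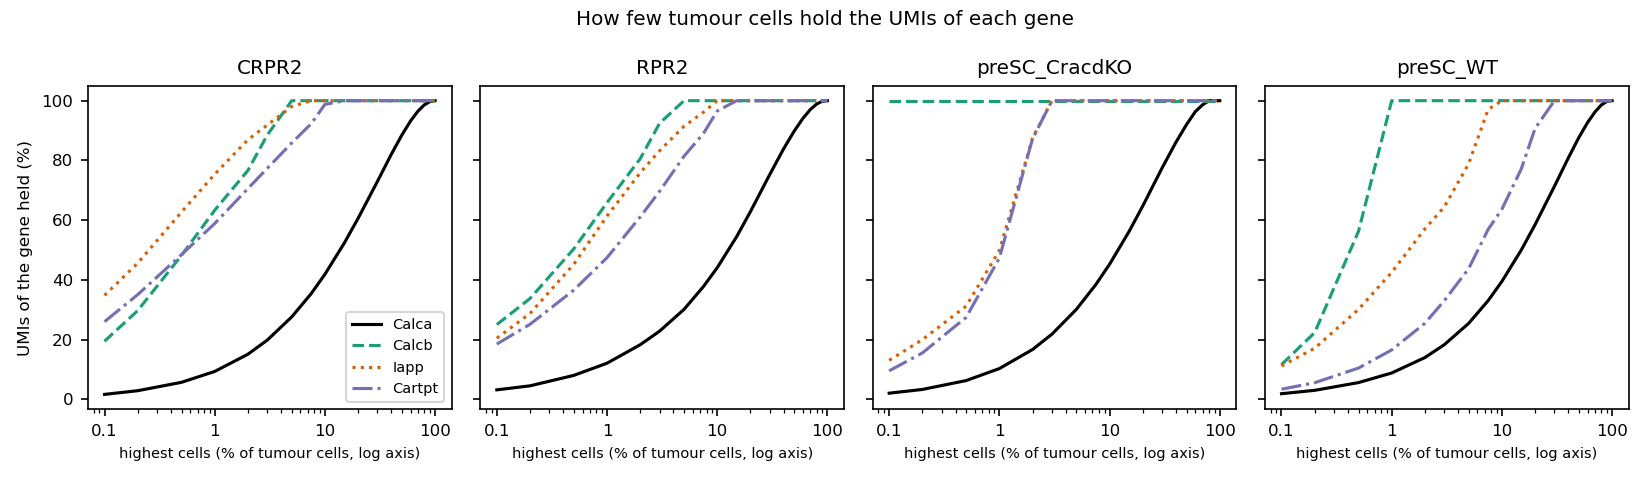
Share of the UMIs of each member (%) held by the highest tumour cells (% of tumour cells, log axis), 1 panel per library. The Calca curve rises last in every library, and Iapp rises first in CRPR2. In the library labelled preSC_WT Cartpt is the minor member nearest to Calca. Even so, the highest 10% of cells there hold 63.6% of the Cartpt and 39.5% of the Calca UMIs. The Calcb line of the library labelled preSC_CracdKO rests on 15 UMIs.

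Lung tumour cells fell into 10 clusters, built without the members as variable genes, of which 9 held at least 50 cells of both libraries. Calca was higher in CRPR2 in 9 of the 9, with ratios from 1.62 to 2.46 and a median of 1.82. Its level was lowest in the cycling clusters 9 and 14, led by Cenpf, Ube2c and Cdc20, genes of mitosis. These stood at 3499 CPM in CRPR2 and 2163 CPM in RPR2 for cluster 9, and at 2651 CPM in CRPR2 and 1402 CPM in RPR2 for cluster 14. Cluster 16, led by the secretory genes Dcpp1, Dcpp2 and Dcpp3, was held by 350 CRPR2 and 11 RPR2 cells and had the highest Calca, 13543 CPM in CRPR2. Without it the Calca log2 ratio of the pair was 1.01, against 1.07 with it.

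The minor members were all high in cluster 7, with 818 CRPR2 and 348 RPR2 cells, which was their highest cluster in RPR2 and that of Cartpt in CRPR2. It was led by Tph1, the rate-limiting enzyme of serotonin synthesis, and by Obp2a, and Cartpt and Iapp stood among its 10 leading genes, so their height there is a description. Cartpt reached 362 CPM in CRPR2 and 128 CPM in RPR2 cells of this cluster, and outside clusters 7 and 19 ran from 16.0 to 59.3 CPM. Calcb reached 72.1 CPM in CRPR2 and 35.4 CPM in RPR2, and Iapp 237 CPM in CRPR2 and 271 CPM in RPR2. In the cycling cluster 9 Iapp stood at 231 CPM in CRPR2, near its level in cluster 7, and at 56.1 CPM in RPR2. Of the cells with at least 10 UMIs, cluster 7 held 31 of 41 for Cartpt and 26 of 42 for Iapp in CRPR2, and 10 of 16 and 23 of 39 in RPR2, although it made up 12.4% and 11.4% of tumour cells.

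In CRPR2, Calcb and Iapp were highest in cluster 19, led by the interferon-response genes Rsad2 and Ifit1, with 64 CRPR2 and 170 RPR2 cells. Iapp stood there at 487 CPM in CRPR2 and 156 CPM in RPR2, Calcb at 98.0 CPM in CRPR2 and 12 CPM in RPR2, and Cartpt at 172 CPM in CRPR2 and 36.6 CPM in RPR2. The RPR2 cells of this cluster had Cartpt at the level of cluster 6 (37.7 CPM). Iapp was not uniform between the libraries: it was higher in CRPR2 in 5 of the 9 shared clusters, with the interval above 1 in 3 and below 1 in 2. Ratios ran from 0.367 in cluster 14 (29 and 84 UMIs, 0.232 to 0.566) to 5.23 in cluster 11 (33 and 2 UMIs, 1.34 to 45.0). These intervals count each UMI on its own, while 18 CRPR2 cells held 50% of its Iapp UMIs. A few cells can therefore set the ratio of a cluster. Cartpt was higher in CRPR2 in 9 of 9, with the interval above 1 in 5, and Calcb in 7 of 9, with the interval above 1 in 4.

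**Figure D3:**
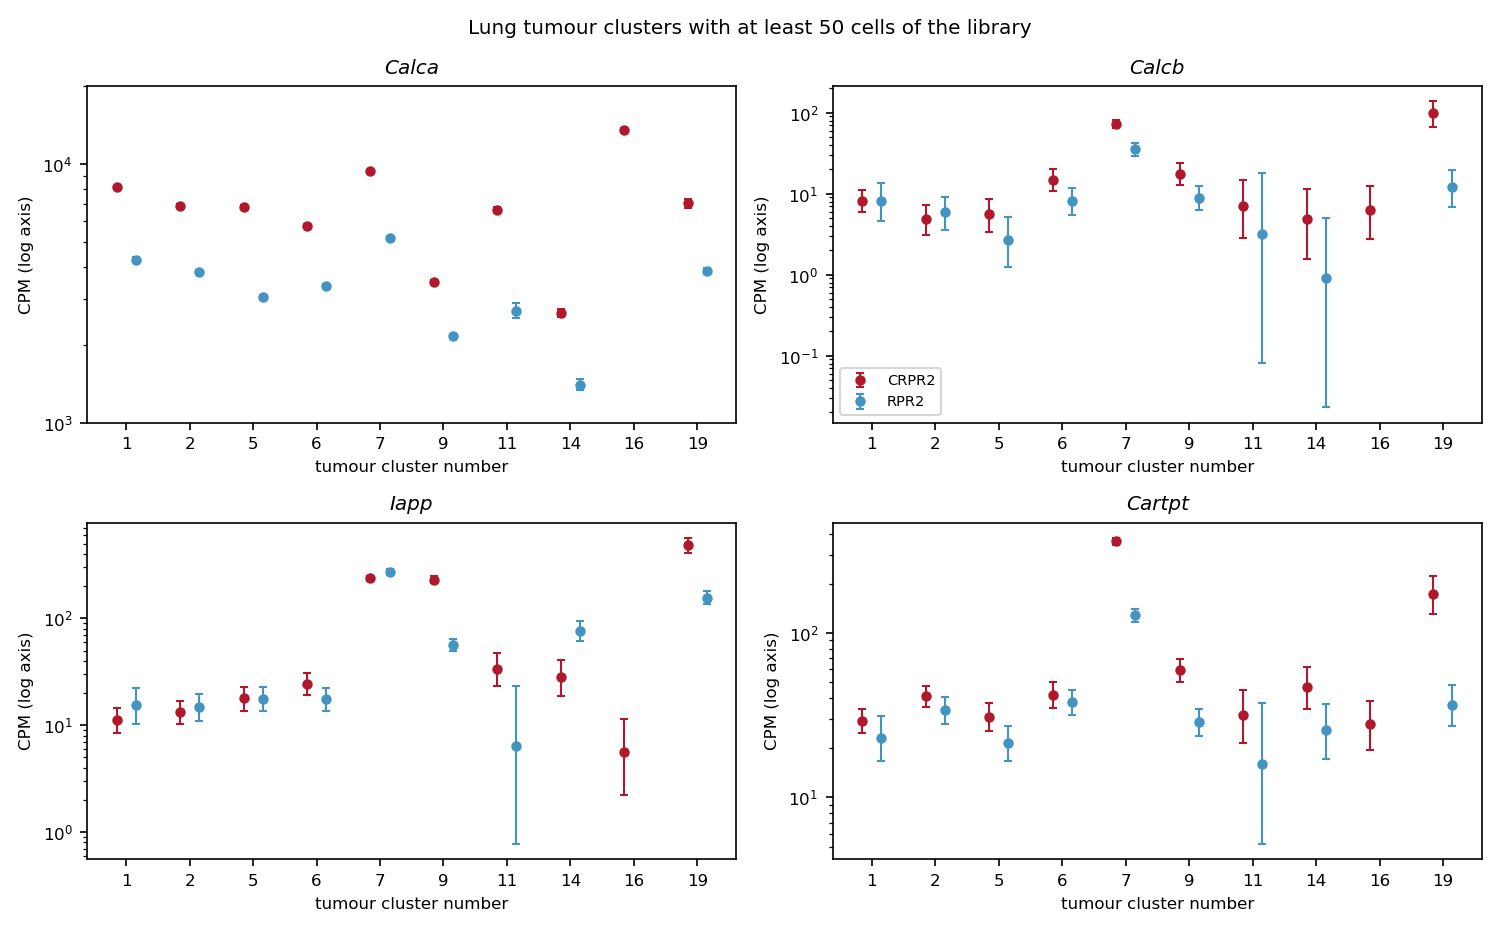
CPM of each member (log axis) in the lung tumour clusters with at least 50 cells, CRPR2 in red and RPR2 in blue, with 95% Poisson intervals. Calca is higher in CRPR2 in each of the 9 shared clusters. Calcb, Iapp and Cartpt are high in clusters 7 and 19 of CRPR2, and in RPR2 highest in cluster 7.

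In the allograft pair the tumour clusters hardly mixed, since each was held to at least 90% by 1 library. Calca ran from 182 to 998 CPM over the 6 clusters of the library labelled preSC_CracdKO, and from 542 to 4191 CPM over the 7 of the library labelled preSC_WT with at least 50 cells. Those ranges overlapped through cluster 15 of the library labelled preSC_WT alone, which was led by Gm34237, Igfbpl1 and Dcc and had 542 CPM of Calca. Cartpt ran from 1.99 to 6.82 CPM over the clusters of the library labelled preSC_CracdKO. Over those of the library labelled preSC_WT it ran from 49.8 to 70.8 CPM, without overlap. Clusters of 1 library are not replicates, and how many other genes also did not overlap was not counted. In this pair 22.2% of 8163 genes were called. Only cluster 4, with cycling genes Ube2c, Ccnb1 and Cdc20 among its leading genes, held 50 cells of both: Calca stood at 399 CPM in 2128 cells of the library labelled preSC_CracdKO and 1570 CPM in 92 cells of the library labelled preSC_WT, a ratio of 0.254.

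**Figure D4:**
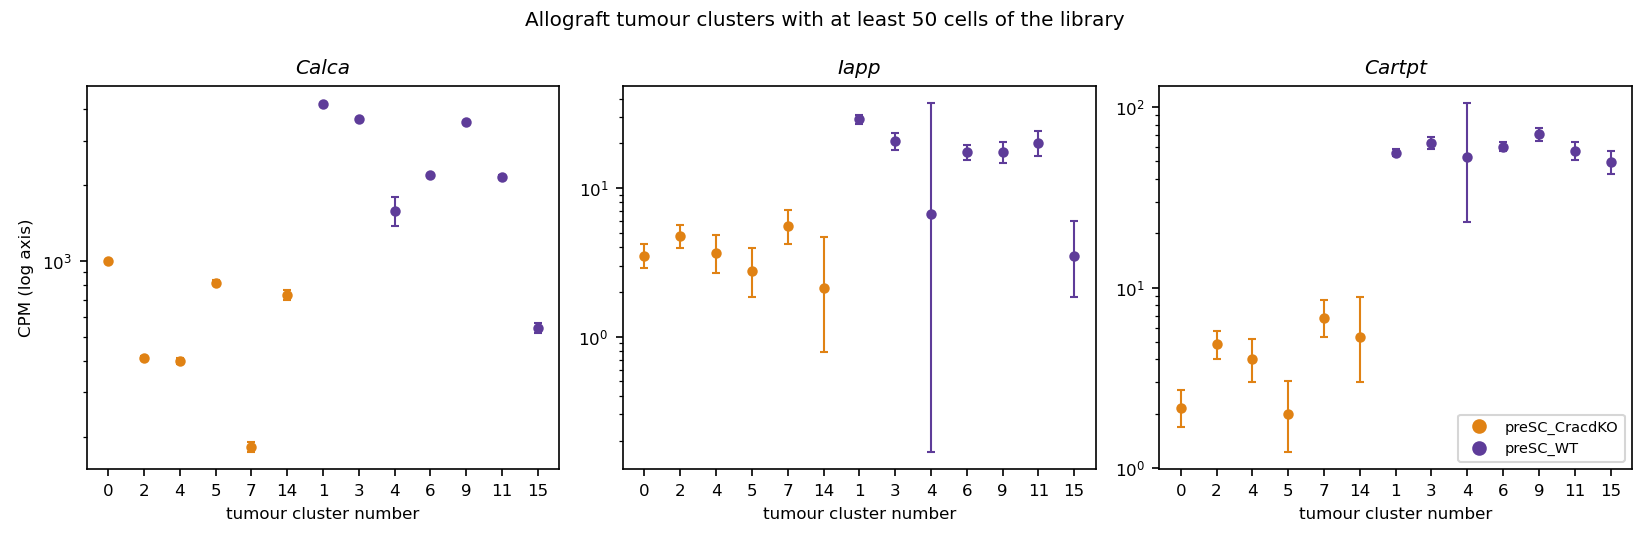
CPM of Calca, Iapp and Cartpt (log axis) in the allograft tumour clusters with at least 50 cells of the library labelled preSC_CracdKO (orange) or preSC_WT (purple), with 95% Poisson intervals. Cartpt lies between 49.8 and 70.8 CPM in every plotted cluster of the library labelled preSC_WT and reaches at most 6.82 CPM in those of the library labelled preSC_CracdKO, while Calca varies within both.

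In most tumour cells UMIs of exactly 1 member were seen. Such cells made up 79.6% in CRPR2, 75.2% in RPR2, 73.3% in the library labelled preSC_CracdKO and 66.3% in the library labelled preSC_WT. After thinning they were 84.0% in CRPR2, 72.4% in RPR2, 36.7% in the library labelled preSC_CracdKO and 75.3% in the library labelled preSC_WT. In the library labelled preSC_CracdKO 63.1% of the thinned tumour cells held no member UMI, so most cells there showed no member at equal depth. Without thinning, all 4 members were seen together in 21 CRPR2 and 7 RPR2 cells. They were seen together in 0 cells of the library labelled preSC_CracdKO and 7 cells of the library labelled preSC_WT. The minor members met in the same lung cells more often than their shares alone give. Calcb and Iapp were both seen in 53 CRPR2 and 37 RPR2 cells, 3.57 and 3.46 times the number expected from the shares, with odds ratios of 4.75 in CRPR2 and 5.21 in RPR2. For Iapp and Cartpt the odds ratios were 3.26 in CRPR2 and 3.49 in RPR2, and for Calcb and Cartpt 3.54 in CRPR2 and 2.29 in RPR2.

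The odds ratios were lower within clusters, and most were not lower at equal depth. With tumour clusters as strata the odds ratio of Calcb and Iapp was 2.15 in CRPR2 and 3.12 in RPR2, that of Iapp and Cartpt 1.79 and 2.55, and that of Calcb and Cartpt 1.96 and 1.53. Cells with an Iapp UMI were deeper than those without, with medians of 5328.5 and 3287 UMIs in CRPR2 and 9109 and 5857 in RPR2. At 1000 UMIs per cell 12 CRPR2 and 10 RPR2 cells still held both Iapp and Cartpt, with odds ratios of 2.00 and 5.74. There 10 CRPR2 and 4 RPR2 cells held both Calcb and Iapp, with odds ratios of 5.14 (2.61 to 10.1) and 7.94 (2.65 to 23.7). For Calcb and Cartpt 15 CRPR2 cells and 1 RPR2 cell were left, with odds ratios of 4.66 and 1.37. In the library labelled preSC_WT, Iapp and Cartpt had an odds ratio of 1.95 over 354 shared cells, and 1.04 over 11 after thinning, so that overlap was not detectable at equal depth.

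Calca was higher in cells that held Calcb, its neighbour on the chromosome. Summed over the 263 CRPR2 cells with a Calcb UMI, Calca stood at 12368 CPM, against 6936 CPM in the 6360 without, and over the 111 RPR2 cells with one at 5744 CPM, against 3342 CPM in the 2947 without. Only 1 of the CRPR2 and 2 of the RPR2 cells with Calcb lacked a Calca UMI. These were 0.380% and 1.80% of the cells with Calcb, whose median depths were 5408 and 8516 UMIs. Among all tumour cells over 5000 UMIs, 0.488% in CRPR2 and 1.72% in RPR2 lacked one, so these counts alone show no link. After thinning, the odds ratio of Calca and Calcb was 2.43 (0.888 to 6.64) in CRPR2 and 1.60 (0.546 to 4.67) in RPR2. Both intervals included 1, so a link in detection was not shown at equal depth. Whether reads from the 12 shared words were exchanged between the genes was not tested. For Iapp the gap was small, at 7716 CPM with and 7219 CPM without an Iapp UMI in CRPR2, and 3632 and 3442 CPM in RPR2. In the library labelled preSC_CracdKO, Calca was lower in the 341 cells with a Cartpt UMI, 431 CPM against 645 CPM in the others.

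Genes with the most similar pattern were ranked by Pearson's r over the 19 sums of lung cluster and library among 9027 genes. These sums share libraries and depth, so r is a description. For Calca the leaders were Ddr1, a collagen receptor (0.96), S100a13 (0.91) and Eno2, the neuronal enolase (0.89), and the other members lay far off, with Calcb at 0.49, Cartpt at 0.39 and Iapp at -0.07. Cartpt was led by Tnfrsf12a, the receptor of the cytokine TWEAK (0.94), Tnfrsf11b, the decoy receptor osteoprotegerin (0.92), Prok2, a secreted prokineticin (0.91), and Scg2, a granule protein (0.90), with Calcb at 0.88. Iapp shared Tnfrsf12a (0.83) at its head, followed by Gpcpd1 (0.83) and the interferon-induced chemokine Cxcl10 (0.83), and Calcb had Rspo4 (0.89) first, followed by Cartpt (0.88). Over the 13 allograft sums among 9310 genes, Calca was led by Lysmd2 (0.99) and Resp18, a granule protein (0.97), and Cartpt by Slc35d2 (0.99) and Ctsz, a lysosomal protease (0.98), in a pattern that mostly splits the libraries.

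The receptors of these peptides lay largely outside the tumour cells. Calcrl was at 0.0745 CPM in CRPR2 and 0.0447 CPM in RPR2 tumour cells, from 2 and 1 UMIs, and at 0.0912 and 0.0386 CPM in the libraries labelled preSC_CracdKO and preSC_WT. Calcr had no UMI in the lung tumour cells. Endothelial-like cells of the library labelled preSC_WT, 236 in number, carried both Calcrl (187 CPM, 48.3% of cells) and Ramp2 (868 CPM, 86.9% of cells), the pair for adrenomedullin, with no Ramp1 UMI. Ramp1, the partner for CGRP, was highest in T-cell-like cells of the lung, at 226 CPM in CRPR2 and 611 CPM in RPR2, beside Calcrl at 12.4 and 15.3 CPM. Club-cell-like cells had Ramp1 at 147 CPM in CRPR2 and 92.1 CPM in RPR2, and monocyte-like cells at 191 and 161 CPM, whereas tumour cells had 19.6 CPM in CRPR2 and 25.6 CPM in RPR2.

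**Figure D5:**
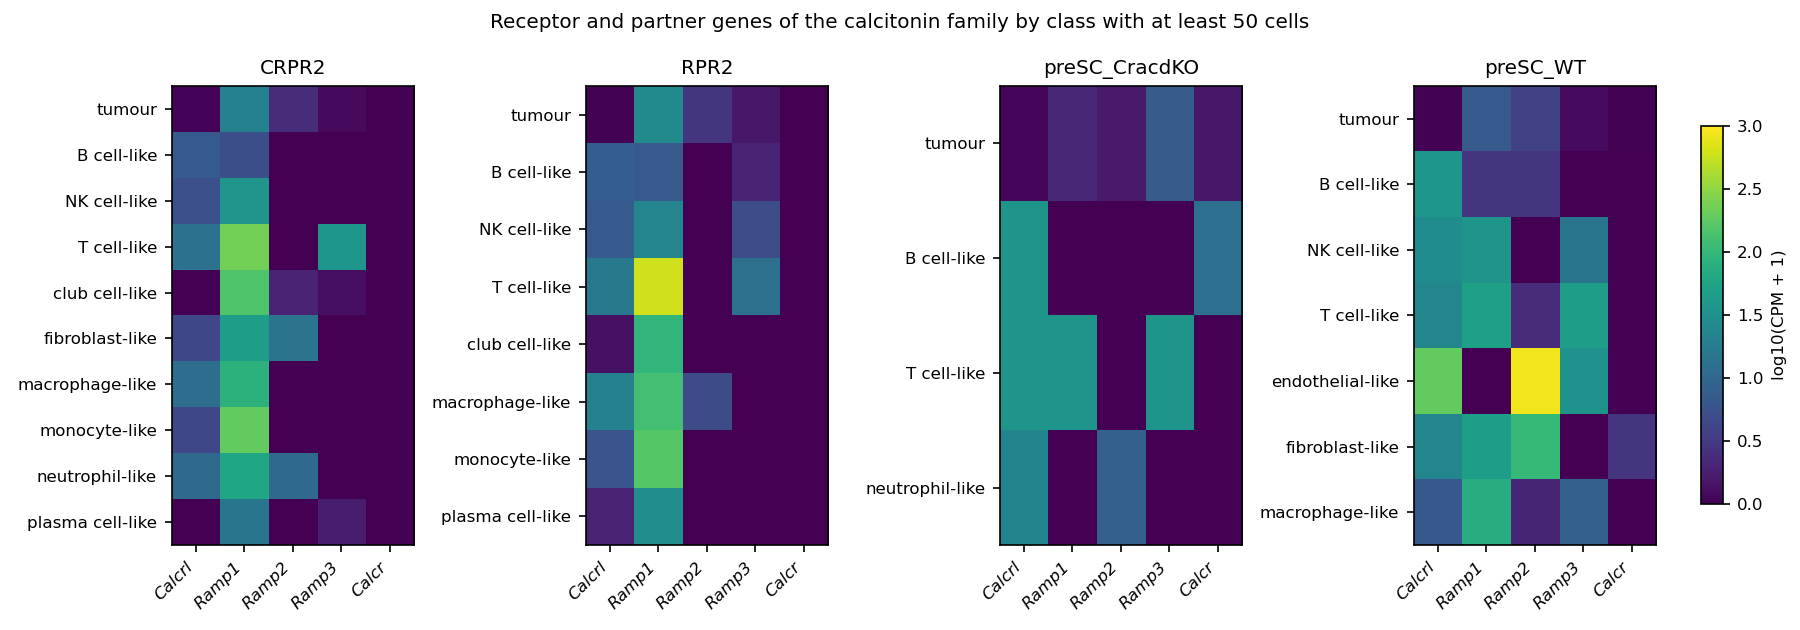
Level of Calcrl, Ramp1, Ramp2, Ramp3 and Calcr, as log10(CPM + 1), in tumour cells and in each class with at least 50 cells of the library. Ramp1 is brightest in the lung T-cell-like cells and Calcrl with Ramp2 in the endothelial-like cells of the library labelled preSC_WT; Calcrl in the immune classes of the library labelled preSC_CracdKO rests on 3 UMIs each.

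Of the 8 other genes of the calcitonin family and its receptors, 1 in each pair reached 20 CPM, Ramp1 in the lung and Crcp in the allografts, and 0 were called, where 1.19% and 22.2% of all genes were. Under that level, Adm2, a calcitonin-family peptide, stood at 11 CPM in the library labelled preSC_CracdKO and 0.437 CPM in the library labelled preSC_WT, and Ramp3 at 6.76 and 0.219 CPM. These were chosen after their values were seen. Adm, the adrenomedullin precursor, was at 15.1 CPM in CRPR2 and 19.8 CPM in RPR2.

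Calca stood far above other peptide hormones in level, while the minor members did not. Of 39 other hormone and neuropeptide genes, 35 stayed under 20 CPM in both lung libraries and 25 under 1 CPM, and in the allografts 38 and 29 did. In the lung, 4 reached 20 CPM and 0 were called. They were Igf2, an insulin-like growth factor, at 210 CPM in CRPR2 and 167 CPM in RPR2, above Cartpt, Iapp and Calcb; Edn3, an endothelin, at 36.4 and 59.6 CPM; Gal, the galanin precursor, at 26.4 and 13.2 CPM; and Pomc, the corticotropin precursor, at 21.3 and 18.8 CPM. The Gal ratio was 1.99 (1.74 to 2.29), just under the limit of 2. In the allografts, Cck, the cholecystokinin precursor, reached 24.3 CPM in the library labelled preSC_CracdKO and 13.3 CPM in the library labelled preSC_WT and was not called. Grp, the gastrin-releasing peptide known from human small cell lung cancer, was at 2.12 CPM in CRPR2 and 4.74 CPM in RPR2.

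The machinery that cuts, amidates and stores peptide hormones was expressed throughout. All 11 genes of that list reached 100 CPM in a library of each pair. In the lung 0 of 11 were called, where 1.19% of all genes were, with a median log2 ratio of 0.31 against -0.03 over all genes. The nearest were Resp18, at 1419 CPM in CRPR2 and 875 CPM in RPR2, Scg5, a chaperone of the convertase Pcsk2, at 379 and 247 CPM, and Pam, the enzyme that amidates CGRP and amylin, at 409 and 277 CPM. In the allografts 4 of 11 were called lower and 0 higher, where 14.9% of all genes were lower and 7.29% higher, with a median log2 ratio of -0.71 against -0.15. Pcsk1, a convertase that cleaves prohormones, stood at 54.5 CPM in the library labelled preSC_CracdKO and 491 CPM in the library labelled preSC_WT, 9.0-fold lower (8.75 to 9.27). Scg2 stood at 71.0 and 305 CPM, Resp18 at 166 and 670 CPM, and Pam at 224 and 762 CPM in the same order. Pcsk2 went the other way within the limit, at 418 and 325 CPM, and Cpe, the carboxypeptidase that trims cleaved peptides, was at 88.8 and 127 CPM.

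Of 9 regulators of neuroendocrine cells, 5 were tested in each pair. In the lung 0 of 5 were called. In the allografts Insm1, a zinc-finger factor of endocrine cells, was at 107 CPM in the library labelled preSC_CracdKO and 255 CPM in the library labelled preSC_WT, 2.39-fold lower. Isl1, a LIM-homeodomain factor, was the only one of these 5 called higher, at 93.4 CPM in the library labelled preSC_CracdKO from 9221 UMIs, against 1 UMI in the library labelled preSC_WT, a ratio with a counting interval of 1302 to 286713. Nkx2-1, a factor of lung epithelium, was near equal at 240 and 220 CPM.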

How the data were processed

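Single-cell RNA was measured in 4 libraries, 1 per group. The authors deposited raw UMI counts, as whole numbers for each gene in each barcode. Per the file headers, Cell Ranger wrote them, in version 6.1.2 for CRPR2 and RPR2 and 5.0.0 for the allografts. Build mm10 is given in the submitters' processing notes, which also name Scanpy 1.8.2 and Seurat. The sources used here name no annotation release and no cell-calling rule.

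Barcodes under 300 genes or over 15% mitochondrial UMIs were dropped. Doublets that Scrublet (in scanpy 1.11.5) marked were removed; where its threshold marked under 0.5% of cells, as in CRPR2, the top-scoring cells were taken out instead, 0.8% for every 1000 barcodes. Each pair was clustered together (2000 variable genes without the members, 50 principal components, 15 neighbours, Leiden resolution 1.0, seed 1). A cluster was named where its marker score reached 2, or 0.5 for tumour cells, on at least 3 markers, and not where its leading 10 genes or its depth went against the name. Classes are rebuilt from these data and called "-like"; unnamed clusters stayed out.

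UMIs were summed per class and library and given as CPM. Sums carry exact Poisson, shares Clopper-Pearson and ratios exact conditional binomial intervals at 95%, and where no cell held a UMI the limit is 3 counts over the cells; fitted log2 ratios over lists had 1 CPM added. Simulated data held counting error only, with changes planted well past the limit of 2. On them the call rule recovered 199 of 200 changed genes for CRPR2 over RPR2 among 7027 genes, with 0 false calls. For preSC_CracdKO over preSC_WT it recovered 200 of 200 among 7468, also with 0. This outcome follows from the settings and gives no rate of false calls between real libraries. TMM factors came from edgeR 4.0.16 in R 4.3.3. Gene positions are from GENCODE on mm10. Named genes are the members, the genes of 4 lists that were called or reached 100 CPM, and the 5 genes most like each member; others were chosen after their values were seen. The members, lists, naming rule and tests were chosen with earlier results of these data known.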

Additional observations from a re-analysis of the deposited data

Results flagged for a closer look

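In 3 members the pairs went in opposite directions, each with a counting interval that excludes 1. The Calca ratio was 2.09 for CRPR2 over RPR2 and 0.196 for the library labelled preSC_CracdKO over the library labelled preSC_WT. The Calcb ratios were 1.84 and 0.105, and the Cartpt ratios 2.11 and 0.0630, in the same order. The difference between the pairs was not tested, since each arm is 1 library. The allograft direction rests on labels that the Cracd RNA does not bear out.

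Signal also appeared in cells that entered no comparison, above the level in immune cells of the same library. Club-cell-like cells held Calca at 1378 CPM in CRPR2 and 803 CPM in RPR2, with a UMI in 36.9% of 1157 and 36.9% of 282 cells, and 203 and 56 of these cells held at least 10 UMIs. They held Cartpt at 24.2 CPM in CRPR2 and 8.08 CPM in RPR2, and in CRPR2 also Calcb at 4.33 CPM and Iapp at 5.86 CPM. Unnamed allograft clusters held Calca at 498 CPM in the library labelled preSC_CracdKO and 2272 CPM in the library labelled preSC_WT, and Cartpt at 47.7 CPM in the library labelled preSC_WT. Of these cells, 78 of the library labelled preSC_CracdKO and 891 of the library labelled preSC_WT were in cluster 12, and 155 and 276 in the histone-led cluster 17. Both carried tumour markers at a depth too low for a name. The source of these UMIs was not tested.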

How the results depend on the processing

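No paired analysis was possible because each group holds 1 library and the pairs share no animals. Of 88 alternative values of the member log2 ratios, 53 stayed inside the counting interval of the main value, 35 left it and 0 of the ratios whose interval excludes 1 changed sign. The cause of each move was not tested. For CRPR2 over RPR2, the Calca log2 ratio of 1.07 was 1.04 with doublets kept, 1.09 under a gate on single cells, 1.05 as the mean of each cell's CPM, 1.08 after thinning, 1.12 with TMM factors, 1.05 with the immune level subtracted, 1.01 without cluster 16 (the cluster held to 90% by 1 library), 0.93 with equal weight per cluster, 0.64 with unnamed clusters counted as tumour and 1.12 without the 10 highest cells of each library. The last 3 alternatives were chosen after seeing the data. The gate took cells with UMIs of at least 3 tumour markers and none of Ptprc, Cd79a, Cd3e, Scgb1a1, Col1a1 or Pecam1. It kept 1957 of 6623 tumour cells in CRPR2 and 1936 of 3058 in RPR2, so its lung values rest on a smaller part of CRPR2. In the libraries labelled preSC_CracdKO and preSC_WT it kept 14171 of 14668 and 11819 of 12440. Cartpt (1.08) was 0.62 under the gate, 0.86 by cell means, 0.93 after thinning, 1.21 with equal weight and 0.68 with unnamed clusters. Calcb (0.88) was 1.45 with equal weight, 0.48 with unnamed clusters and 1.22 without the 10 highest cells. Iapp (0.09) was -0.28 under the gate, -0.27 by cell means, -0.11 after thinning, 0.21 with the immune level subtracted, 0.78 with equal weight, -0.35 with unnamed clusters and -0.022 without the 10 highest cells, so its lung direction is not settled.

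For preSC_CracdKO over preSC_WT, Calca (-2.35) was -2.34 under the gate, -2.32 by cell means, -2.25 with TMM factors and -2.32 with the immune level subtracted. Iapp (-2.47) was -2.64 after thinning and -2.03 after subtraction, Cartpt (-3.99) was -4.20 and -3.73, and Calcb (-3.25) was -2.33 after thinning and -4.70 without the 10 highest cells. Leaving out clusters of 1 library and equal cluster weights gave no allograft value. The count of genes past 2-fold was 86 in the lung and 1813 in the allografts, 262 and 2991 at 5 CPM or more, and 2499 and 8097 with no minimum but 1 UMI in both. Shares moved outside their interval in 24 of 80 alternatives and odds ratios in 13 of 41. A further 1 of the 41 was reversed. It was the odds ratio of Calca and Cartpt in CRPR2, 1.76 (1.07 to 2.89), which was 0.745 (0.512 to 1.08) after thinning. Sums under 20 CPM, Calcb in the allografts above all, are limited by depth.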

Other observations

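Cluster 13 of the lung pair received no name and held 499 CRPR2 cells and 1 RPR2 cell. It was led by Spp1, a secreted phosphoprotein, Tm4sf1, S100a6 and Tff1, and its CRPR2 cells had a median depth of 13362 UMIs, against 3365 in CRPR2 tumour cells. Calca stood at 188 CPM and was seen in 22.8% of these cells, or 6.08% after thinning to 1000 UMIs, against 264 CPM, 13.4% and 7.90% in immune cells of that library. Iapp was at 0.522 CPM, Calcb at 1.57 CPM and Cartpt at 7.73 CPM there. Ramp1 was seen in 39.1% of these cells, at 64.2 CPM.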
